A study of Polypedilum vanderplanki with 33 samples.

Results

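The 121 genes described here were abundant in larvae of the sleeping chironomid Polypedilum vanderplanki and each held a share of the sequenced messenger RNA that stayed within 2-fold, by time means, while the larvae dried out and were rewetted. They were chosen by their measured levels, in reads of a gene per 1e6 counts of its library (CPM). A gene was kept if its mean CPM was at least 50 at every one of the 17 sampled times and if its highest time mean was at most 2 times its lowest. Genes on 5 named scaffolds were to be dropped, and 0 genes there met both limits. This left 121 of the 28415 genes in the count table, and 11.4% of the 1065 genes outside those scaffolds that stayed at or above 50 CPM at every time. Because the levels chose the genes, their levels and ratios over time are given as a description.

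The series measured polyadenylated RNA by RNA-seq in whole larvae, from highly inbred lines reared on an agar diet with milk. Larvae of the same kind were sampled after 0, 1, 8, 12, 16, 24, 32, 36, 40 and 48 h of dehydration and after 0, 1, 3, 6, 12, 24 and 48 h of rehydration, and the undried larvae at 0 h of dehydration served as the starting point. No genotype or agent other than drying and rewetting distinguished the groups, and how many larvae went into a library is not stated. There were 3 libraries at 8, 12, 16, 24 and 40 h of dehydration, 2 at 0, 1 and 48 h of dehydration and at 0, 1 and 3 h of rehydration, and 1 at each other time, in 2 batches named in the labels. The labels do not state whether replicates were separate cultures or animals, and every p-value therefore measures only the spread between these libraries, which may be technical.

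Larvae of this midge survive the loss of almost all their body water in a state called anhydrobiosis. While drying slowly they build up trehalose and protective proteins such as the late embryogenesis abundant (LEA) proteins, and the messenger RNAs for such proteins rise strongly. A transcript count is always a share of a pool, so a gene can keep its share while its level relative to other genes changes. Genes used in every cell for protein synthesis, energy supply or the cytoskeleton are often taken as stable references. Whether the 121 genes are of that kind cannot be read here, since the deposited tables pair the IDs with no names and 0 of them matched the RefSeq gene table of assembly Pv_5.2. They are therefore given by ID and by scaffold position, as in the deposited annotation, whose genome build is not given in the sources used here.

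Each library held between 15015674 and 34179203 counts, with a median of 25150715. One library stood apart. Replicate 2 at 1 h of rehydration, from batch 2, had counts for 8035 genes, against 14232 to 22047 genes in the other 32 libraries. The choice of genes left it out, and so did the tests, unless it is named. Every chosen gene had at least 804 counts in each of the 32 libraries, so counting error was small beside the spread between replicates. In bulk samples of whole larvae, fewer cells of a type and less RNA per cell cannot be told apart.

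Together the 121 genes took a similar part of every library. Their summed counts made up 6.83% to 11.3% of all counts over the 32 libraries, with a median of 8.41%. The share was highest in undried larvae, at 9.51% and 11.3% in the 2 libraries. Drying larvae had 7.28%, 7.37% and 8.32% at 8 h and 7.90%, 8.13% and 8.53% at 24 h. Those dried for 48 h had 8.61% and 8.69%. The 8 h and 24 h libraries all lay below both undried ones, and so did those at 48 h. In rehydration the shares were 9.05% and 9.29% at 0 h, then 8.58% and 9.20% at 3 h, and the only library of 48 h had 8.41%. The lowest share, 6.83%, belonged to the single library at 36 h of dehydration, from batch 2.

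**Figure D1:**
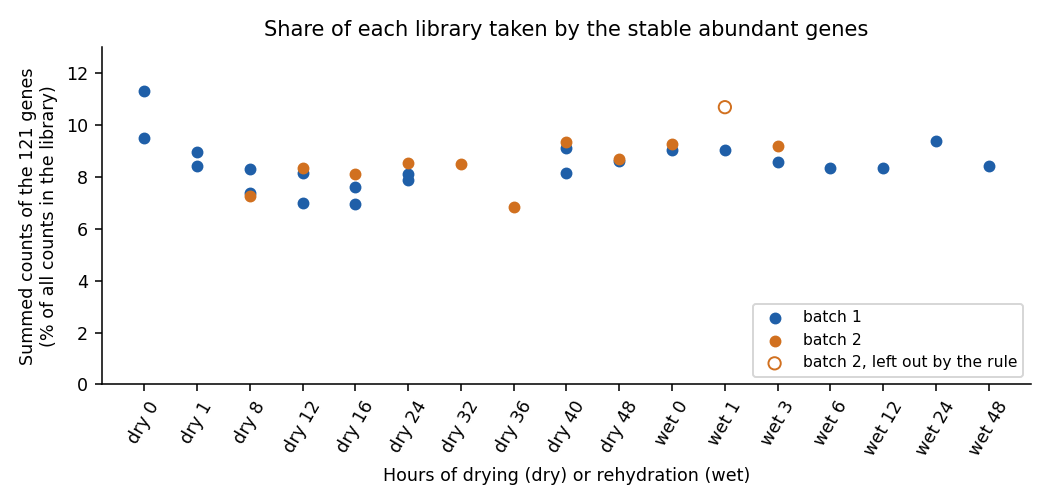
Share of all counts in a library (%, vertical axis) taken by the 121 stable abundant genes at each time of dehydration (dry) and rehydration (wet), with 1 point per library and the batch by colour. The 32 libraries used for the choice lie between 6.83% and 11.3%, with both 0 h libraries in the upper part, and the open circle is the library left out of the choice, at 10.7%.

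The genes spanned a wide range of levels. Their mean CPM over the 17 times ran from 69.1 to 9449.5, with a median of 268.5, and the 10 most abundant held 38.6% of their summed CPM. Per kilobase of exon, the scale on which genes of different length can be compared, levels ran from 17.99 to 5533 CPM per kb with a median of 199.8 (quartiles 74.9 and 938). Of the 1065 abundant genes, 17.3% of the 162 with a mean of at least 1000 CPM were among the 121, as were 8.31% of the 385 between 100 and 200 CPM and 16.8% of the 107 below 100 CPM. Such shares describe the choice.

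The most abundant was PvG010349, on the minus strand of scaffold 199 (485428 to 487937, 3 exon blocks, 1708 exonic bases), whose model overlaps another. It had 10655 and 11828 CPM in the undried libraries, 8903, 9304 and 10192 CPM at 24 h, and 10899 and 10015 CPM at 48 h of dehydration. At 0 h of rehydration it had 11184 and 10175 CPM, and at 3 h 9919 and 9133 CPM. The libraries at 24 h of dehydration and at 3 h of rehydration all lay below the undried ones, while those at 48 h of dehydration and 0 h of rehydration overlapped them. Per kb it was also the highest, at 5533 CPM per kb, followed by PvG017118 (scaffold 3100, 318987 to 320109, plus strand) at 3490 and PvG019721 (scaffold 368, 225988 to 227442, plus strand) at 3477 CPM per kb. The last 2 genes changed 1.68-fold and 1.69-fold over time, so their order per kb is within that change.

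Next in CPM came PvG020026 (scaffold 3792, 3381 to 5288, minus strand) with a mean of 3707 CPM, then PvG019721 with 2889 CPM and PvG034145 (scaffold 876, 91024 to 92639, minus strand) with 2875 CPM. All 4 had their lowest time mean at 36 h of dehydration. PvG010349, PvG020026 and PvG034145 were highest in undried larvae and PvG019721 at 0 h of rehydration. PvG019721 ran from 2202 to 3364 CPM in the 17 libraries from 0 to 32 h of drying (median 2699), from 2075 to 3702 CPM in the 9 from 36 h of drying to 1 h of rehydration (median 3355), and from 2577 to 3248 CPM in the 6 later ones (median 2939). The 3 periods overlapped.

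The steadiest gene was PvG026132, on the minus strand of scaffold 5492 (32001 to 34160, 3 exon blocks, 1752 exonic bases). Its time means lay between 247 CPM at 1 h and 327 CPM at 24 h of dehydration, a ratio of 1.32. In single libraries it had 224.5 and 317 CPM at 0 h and 228 and 266 CPM at 1 h. At 24 h it had 318, 347 and 315 CPM, at 48 h 320.2 and 291 CPM, at 0 h of rehydration 282 and 309 CPM, and at 3 h 314 and 311 CPM. Its 2 undried libraries differed 1.41-fold, more than its time means did.

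The next genes had ratios of at most 1.48. PvG011351 (scaffold 2107, 110301 to 112485, minus strand, overlapping another model) had a ratio of 1.39, between 189 and 262 CPM. PvG022231 (scaffold 437, 309881 to 311829, plus strand) had 1.39, between 419.95 and 585 CPM, and its 9 libraries from 36 h of drying to 1 h of rehydration had a median of 569 CPM, against 478 CPM in the 17 before them. PvG018542 (scaffold 336, 447306 to 449736, minus strand) had 1.44, between 118 and 170.2 CPM. PvG024131 (scaffold 493, 566766 to 568157, plus strand, overlapping another model) had 1.45, between 94.8 and 137 CPM. PvG011613 (scaffold 21777, 410 to 2127, minus strand) had 1.48, between 249.8 and 371 CPM, with a median of 280.0 CPM in the 6 libraries from 3 h of rehydration on and 333 CPM in the 9 before them, which overlapped. The times of highest and lowest level thus differed between these genes.

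**Figure D2:**
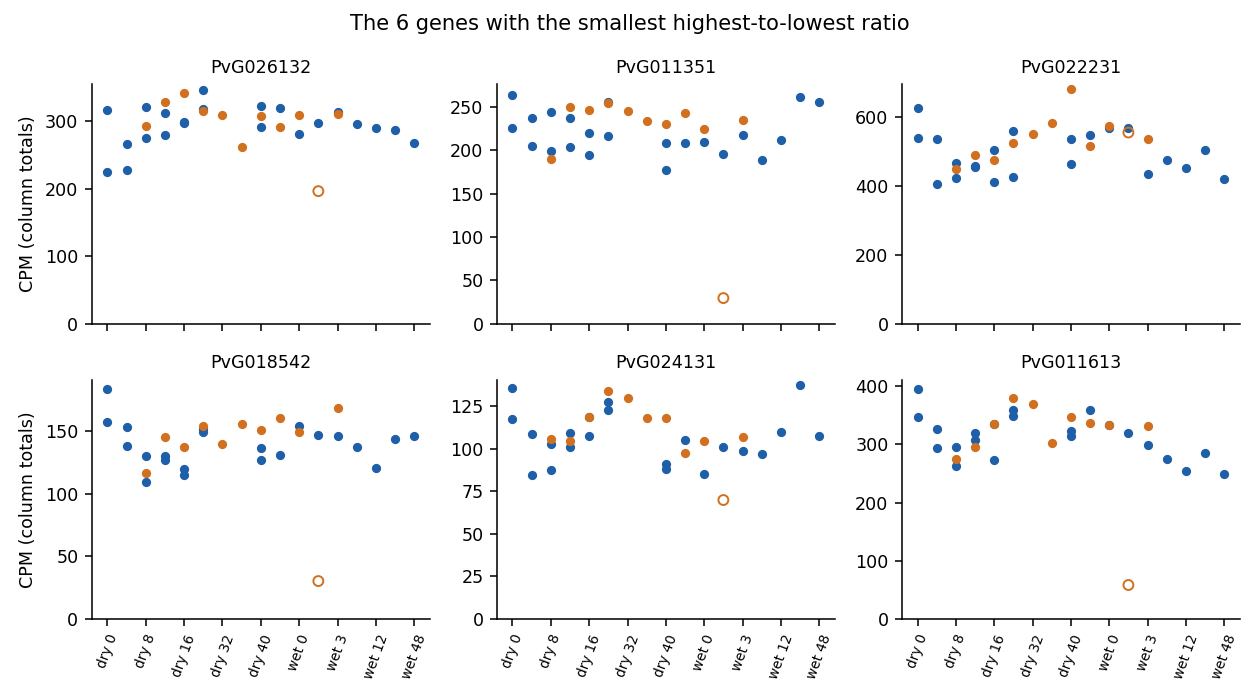
CPM per library (vertical axes, from 0) of the 6 genes with the smallest ratio of highest to lowest time mean, over the times of dehydration (dry) and rehydration (wet), with every second time labelled. Blue points are batch 1, orange points batch 2, and the open circle is the library left out of the choice, which lies far below the others for PvG011351, PvG018542 and PvG011613 and among them for PvG022231.

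Ratios of 1.32 to 2.00 were a continuum with no gap at the limit. The median ratio was 1.79, with quartiles of 1.65 and 1.92, and 8 genes had a ratio of at most 1.5. Just inside the limit were PvG005296 (1.997), PvG032752 (1.996) and PvG019591 (1.989). Just outside were PvG034900 (2.0001), PvG008067 (2.005) and PvG027202 (2.007). At the other limit, PvG011914, PvG023167 and PvG006369 had lowest time means of 51.7, 52.0 and 55.1 CPM, while PvG017946, PvG018553 and PvG033278 missed it with 49.96, 48.6 and 48.4 CPM. The other 944 abundant genes had a median ratio of 3.34 and reached 189.

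The 121 genes were not flat in the same way. The highest time mean fell in undried larvae for 47 of them (38.8%) and between 6 and 48 h of rehydration for 49 (40.5%), and only 13 were highest between 36 h of drying and 1 h of rehydration. The lowest time mean fell at 36 h of dehydration for 34 (28.1%), between 6 and 48 h of rehydration for 33 (27.3%) and between 1 and 32 h of drying for 27 (22.3%). One gene was lowest in undried larvae. The genes lowest at 36 h were abundant and short, with a median of 1234 CPM and 849.5 exonic bases. Since 36 h and the times after 3 h of rehydration rest on 1 library each, an extreme there has no replicate check.

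Against undried larvae, the median gene of the 121 was lower at every other time, by between 0.12 and 0.36 on the log2 CPM scale. The median log2 difference was -0.21 at 24 h, with quartiles of -0.44 and -0.01, and -0.30 at 48 h, with quartiles of -0.50 and -0.05. It was farthest from 0, at -0.36, at 8 and 36 h of dehydration. At 24 h of rehydration the difference was -0.12, and 43 of the 121 genes lay above their undried level. All 1065 abundant genes, of which the 121 are part, had medians of -0.08 at 24 h and -0.27 at 48 h but wider quartiles, of -0.78 and 0.47 at 48 h.

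The order of the genes by level was kept through the cycle. Across the 121 genes, the Spearman correlation of levels was 0.985 between 0 and 24 h of dehydration and 0.971 between 0 and 48 h. It was 0.984 between 0 and 3 h of rehydration, and 0.971 between undried larvae and those at 48 h of rehydration. For the other 944 abundant genes it was 0.865, 0.667, 0.875 and 0.846. These correlations run across genes that share libraries, and the limit on the ratio bounds how far the order of the 121 can change.

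The spread between replicates was of the same order as the movement over time. Within the 10 times with 2 or 3 libraries, the median coefficient of variation of a gene's CPM had a median of 8.54% over the 121 genes (quartiles 7.15% and 11.0%), against 11.5% over the other abundant genes. On the log2 scale, the pooled SD within times had a median of 0.154 (15 degrees of freedom) and the SD between time means a median of 0.218. For the other abundant genes these were 0.214 and 0.511. The choice limits the SD between time means and, in part, the spread between replicates, so these differences partly follow from it. In 5 of the 121 genes (4.13%) the largest ratio between replicates reached the ratio of the time means, against 1.91% of the other abundant genes. Single libraries went further than time means: 66 of the 121 genes stayed within 2-fold over all 32 libraries, with a median ratio of 1.99 and a highest of 2.52. Replicates were farthest apart at 40 h of dehydration, where the median coefficient of variation was 13.0%, and that time holds a batch 2 library whose title says 40 h and whose duration label says 48 h.

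Batches differed little. At the 8 times with libraries of both batches, the median log2 difference of batch 2 from batch 1 lay between -0.07 and 0.16, and 0 of the 121 genes differed by more than 2-fold at any of them. Among the other abundant genes 0.318% to 3.07% did, so the count of 0 is near that share, and the choice had used these libraries. The choice was repeated on batch 1 alone, which covers 15 times, and read in the 10 times of batch 2, whose libraries it had not used. It kept 193 genes, 113 of them among the 121. Of the 193, 161 (83.4%) stayed within 2-fold over the batch 2 times, with a median ratio of 1.71 (quartiles 1.54 and 1.903). Of the other 844 genes at or above 50 CPM in batch 1, 245 (29.0%) did so, with a median ratio of 2.41. Batch 2 had no library at 0 or 1 h of dehydration, nor from 6 h of rehydration on. The highest time mean of 47 of the 121 genes fell at 0 h of dehydration, and of 49 at 6 to 48 h of rehydration. Fewer times make a ratio smaller, so the reading describes the same genes in other libraries over part of the course.

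A constant share of the counts did not mean a constant level relative to other genes. Scaling factors by the trimmed mean of M values (TMM), which line up the bulk of genes between libraries, were 0.543 to 0.869 in the 8 libraries between 40 h of dehydration and 1 h of rehydration and 0.987 to 1.55 in the other 24. After dividing by them, the summed share of the 121 genes came to 10.8 to 15.9 in those 8 libraries and 5.40 to 9.68 in the others, without overlap. Scaled this way it is no longer a percent of the counts. The choice held the share within narrow limits and the factors themselves did not overlap, so this separation follows from the factors. The same holds for any genes with a near-constant share, and the counts that follow rest on the same factors. The median ratio of highest to lowest time mean became 2.61, and 14 of the 121 genes stayed within 2-fold. With TMM, 118 had their highest level between 36 h of drying and 1 h of rehydration, against 13 without. Factors by relative log expression (RLE) left 16 genes within 2-fold and upper quartile factors 4. Applied to all genes, the same limits on TMM-scaled CPM kept 74 genes, 13 of them among the 121.

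**Figure D3:**
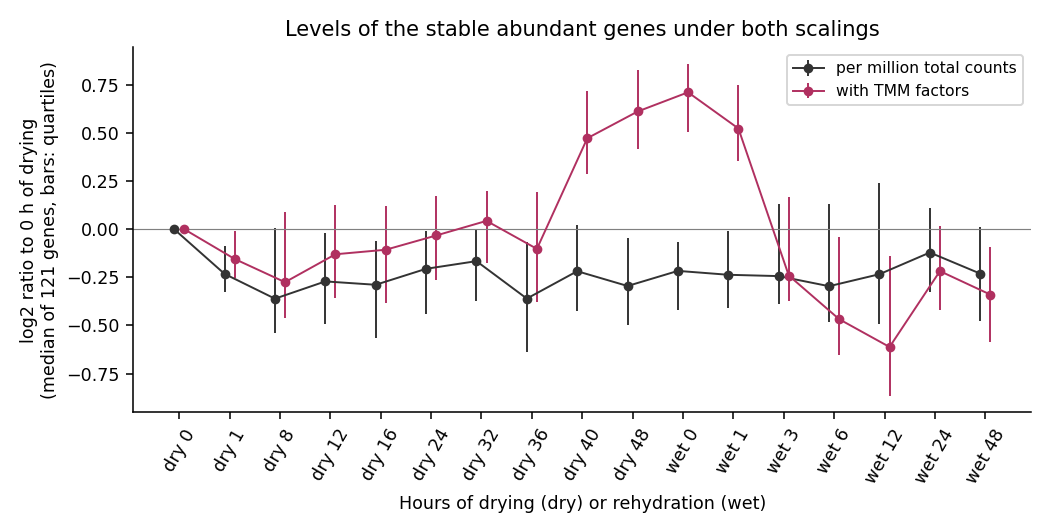
Median log2 ratio to undried larvae of the 121 genes (vertical axis, bars from the lower to the upper quartile over genes) at each time, by total counts (black) and after TMM factors (red). The black medians stay between -0.36 and 0, while the red medians are 0.47 to 0.71 between 40 h of dehydration and 1 h of rehydration and -0.61 to -0.22 from 3 h of rehydration on.

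The tests across all genes used TMM, and the choice had used the same libraries, so the counts below describe the genes and support nothing further. At 24 h against 0 h of dehydration, 3 of the 121 genes rose and 0 fell in edgeR's quasi-likelihood test (Benjamini-Hochberg, 0.05), against 4.59% and 2.93% of all 17789 tested genes. At an unadjusted p under 0.05, 12 were higher and 11 lower, and DESeq2 called 5 up and 9 down. Leaving out any 1 library of the 2 times gave 0 to 2 up and 0 down. The median log2 fold change of the 121 genes was -0.00, with a standard error per gene of 0.157 to 0.253. Without scaling factors 1 rose and 21 fell, with a median of -0.22, against a median of -0.20 over all tested genes.

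The 3 genes were outside the naming rule and are named after their values were seen. PvG014578 (scaffold 261, 95792 to 96599, minus strand) had 197 and 216 CPM at 0 h and 285, 336 and 313 CPM at 24 h, with a log2 fold change of 0.79 ± 0.205 (SE; edgeR quasi-likelihood, Benjamini-Hochberg adjusted p = 0.0174). PvG026597 (scaffold 5817, 3069 to 3534, plus strand) had 100.03 and 104 CPM against 143, 146 and 141 CPM. PvG003587 (scaffold 126, 205455 to 206850, plus strand) had 55.4 and 69.1 CPM against 90.1, 92.1 and 76.4 CPM. In all 3 the libraries of the 2 times did not overlap.

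At 48 h against 0 h of dehydration, 81 of the 121 genes rose and 0 fell, against 15.1% and 18.2% of all tested genes (edgeR quasi-likelihood, Benjamini-Hochberg adjusted). DESeq2 called 85 up and 0 down, and at an unadjusted p 93 were higher and 0 lower in edgeR. Without replicate 1 of 48 h 27 rose, and without replicate 1 of 0 h 41. Of the 81, 23 changed at least 2-fold. The median log2 fold change was 0.65, with quartiles of 0.45 and 0.88, and 120 of 121 values were above 0. The direction turned with the scaling. On the same counts without scaling factors, 2 of the 121 genes rose and 42 fell, against 7.03% and 37.6% of all tested genes, and the median was -0.32. The median of all tested genes moved with it, from -0.28 with TMM to -1.22 without. Relative to that median the 121 genes stood 0.93 higher with TMM, 0.92 with RLE, 0.93 with upper quartile and 0.91 without factors. A scaling factor shifts all genes of a library alike, so these values had to be close to each other. The choice held the share of the 121 genes near constant, so their distance from a falling median follows in part from it. Abundant genes as a whole stood near the 121: by total counts, the median log2 difference at 48 h was -0.30 for them and -0.27 for all 1065 abundant genes, against -0.66 for tested genes on the log2(CPM + 1) scale.

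The 2 largest rises at 48 h were in PvG004293 and PvG001696. PvG004293, on the minus strand of scaffold 1299 (728136 to 734596, 7 exon blocks), had 179.5 and 194 CPM at 0 h and 319.0 and 319 CPM at 48 h, which is 147 and 166 against 588 and 420.0 in TMM-scaled CPM. Its log2 fold change was 1.76 ± 0.199 (SE; edgeR quasi-likelihood, Benjamini-Hochberg adjusted p = 3.84e-07), and its libraries did not overlap on either scale. Its level stepped up between the single libraries at 32 h (179 CPM) and 36 h (325 CPM) and was back to 186 CPM at 48 h of rehydration. PvG001696, on the plus strand of scaffold 1144 (145496 to 149785, 4 exon blocks), had 79.5 and 69.2 CPM against 98.3 and 119 CPM, or 65.1 and 59.3 against 181 and 156 in TMM-scaled CPM. Its log2 fold change was 1.59 ± 0.280 (SE; edgeR quasi-likelihood, Benjamini-Hochberg adjusted p = 0.000106), and it was not called without scaling factors.

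The steadiest genes by share were among those called. PvG026132 had a log2 fold change of 1.13 ± 0.221 (SE) at 48 h (edgeR quasi-likelihood, Benjamini-Hochberg adjusted p = 0.000362), and the other 5 genes of the steadiest 6 had values between 0.60 and 0.86 that also passed. The most abundant gene, PvG010349, had 0.88 ± 0.241 and passed too. All 7 passed in the opposite direction at 3 h against 0 h of rehydration, with values between -1.15 and -0.79. By total counts, PvG026132 went from a time mean of 271 CPM at 0 h to 306 CPM at 48 h of dehydration. The other 5 and PvG010349 were lower at 48 h than at 0 h, so their rises rest on the TMM factors. From 0 to 3 h of rehydration PvG026132, PvG011351, PvG018542 and PvG024131 rose by total counts, and PvG022231, PvG011613 and PvG010349 fell.

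At 3 h against 0 h of rehydration, 99 of the 121 genes fell and 0 rose, against 9.04% and 9.84% of all tested genes (edgeR quasi-likelihood, Benjamini-Hochberg adjusted). The median log2 fold change was -0.88, with quartiles of -0.99 and -0.70, and 24 of the 99 fell at least 2-fold. DESeq2 called 105 down and 0 up, and at an unadjusted p 108 were lower and 0 higher in edgeR. Without replicate 2 of 3 h 64 fell. Without scaling factors 8 rose and 0 fell, against 28.0% and 0.557% of all tested genes, with a median of 0.04. Relative to the median of all tested genes, which was 0.08 with TMM and 0.99 without, the 121 genes stood 0.96 lower with TMM and 0.95 lower without. As at 48 h, a scaling factor shifts all genes alike, so these 2 values had to be close. The choice held the share of the 121 genes near constant, so this distance follows in part from it. At 0 and 3 h of rehydration, the median log2 difference from undried larvae by total counts was -0.24 and 0.07 for all abundant genes. It was -0.22 and -0.24 for the 121 genes, and -0.62 and 0.05 for tested genes on the log2(CPM + 1) scale. With all 33 libraries in the fit, 14 of the 121 rose at 48 h of dehydration, against 6.55% of tested genes, and 0 fell at 3 h of rehydration, against 0.185%.

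The left-out library was the one set of values the choice had not used. In replicate 2 at 1 h of rehydration the 121 genes together took 10.7% of the counts, against 9.05% in replicate 1 of that time, but the single genes had moved far apart. With 1 library on each side there is no test. At least 2-fold lower in replicate 2 were 61 of the 121 genes (50.4%), beside 61.2% of all tested genes, and at least 2-fold higher were 23 (19.0%), beside 15.8%. The log2 difference had a median of -1.23 and quartiles of -3.08 and 0.73. For the other 944 abundant genes the median was -2.42. Counts were 0 for PvG001696, with 2591 in replicate 1, and for PvG004327, with 1872. PvG004327 (scaffold 1299, 1094092 to 1095779, minus strand) was named after its value was seen and is the only single-exon gene of the set.

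Gene length went along with this difference. Across the 121 genes, the log2 difference had a Pearson correlation of -0.80 with the log2 exonic length and a Spearman correlation of -0.87. Those 31 genes with 350 to 820 exonic bases had a median difference of 1.41, and 22 of them were at least 2-fold higher. The 30 with 2047 to 8988 exonic bases had a median of -4.08, and 29 were at least 2-fold lower. Among the other abundant genes of the same lengths the medians were 1.35 and -3.81. PvG018416 (scaffold 336, 23422 to 24086, 504 exonic bases) went from 214 to 1074 CPM and PvG005661 (scaffold 1389, 67460 to 68001, 471 exonic bases) from 906 to 4269 CPM. At the other end, PvG014577 (scaffold 261, 86011 to 95419, 5307 exonic bases) had 4484 counts in replicate 1 and 1 in replicate 2, and PvG017156 (scaffold 3100, 188134 to 309573, 5062 exonic bases) had 9518 and 4. The relation to mean CPM was weaker, at a Spearman correlation of 0.32, and the part of length, depth or RNA quality in it was not tested.

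**Figure D4:**
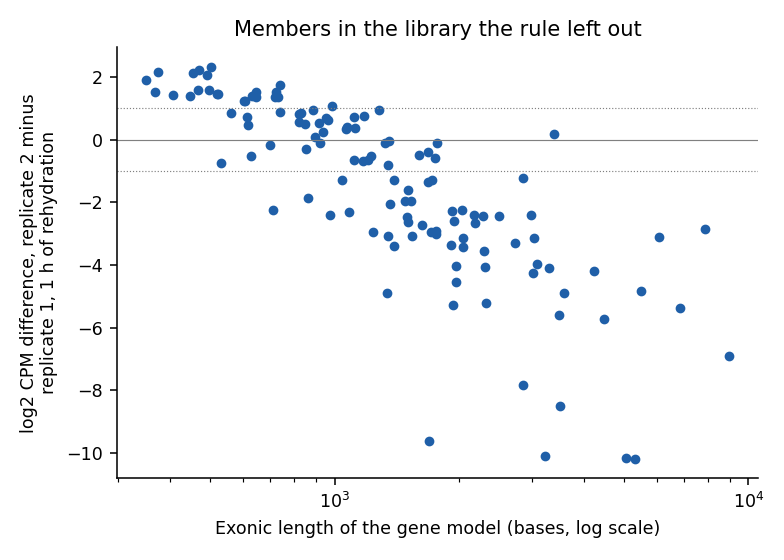
Difference in log2 CPM between replicates 2 and 1 at 1 h of rehydration (vertical axis) against the exonic length of the gene model in bases (horizontal axis, log scale), with 1 point for each of the 121 genes and dotted lines at 2-fold. Points fall from a median of 1.41 in the 31 shortest genes to -4.08 in the 30 longest.

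The same reading in the libraries that were used gave weaker relations, and 1 library again stood out. In each library, a gene's level relative to its own mean over times was set against its exonic length. Over the 121 genes the Spearman correlation was -0.69 in the single library at 24 h of rehydration, where the 31 shortest genes stood 0.335 above their mean on the log2 scale and the 30 longest 0.17 below. It was between -0.42 and 0.52 in the other 31 libraries of the choice. For the other abundant genes the value at 24 h of rehydration was -0.49, and between -0.33 and 0.39 elsewhere. Of the 34 genes lowest at 36 h of dehydration, 15 were among the 31 shortest and 2 among the 30 longest, and the correlation in that library was 0.35. Length went with level in the set: mean CPM had a median of 860 in the 31 shortest genes and 172 in the 30 longest. Whether these values go with length or with level was not tested. Correlations across genes of 1 library share its depth, and no p is given.

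**Figure D5:**
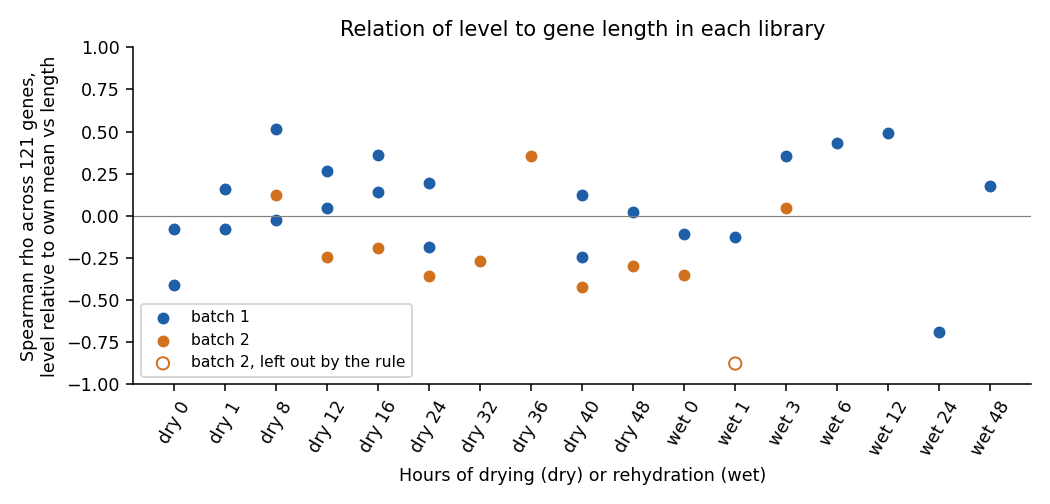
Spearman correlation, across the 121 genes, between a gene's level relative to its own mean and its exonic length (vertical axis) in each library, at each time of dehydration (dry) and rehydration (wet), with the batch by colour. The other 31 points lie between -0.42 and 0.52, with the library at 24 h of rehydration at -0.69 and the left-out library at -0.88.

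The gene models of the 121 were compact beside those of other abundant genes. The median exonic length was 1350 bases (quartiles 820 and 2045), against 1828.5 bases (quartiles 978 and 3464) for the other 944 abundant genes and 1399 bases for all tested genes. They had a median of 4 exon blocks (quartiles 3 and 6), against 5 and 3. A single exon block was seen in 1 of the 121 (0.826%), in 6.04% of the other abundant genes and in 22.2% of tested genes. All 121 had a strand, with 58 on plus and 63 on minus, while 0.318% of the other abundant genes and 5.78% of tested genes had none. These are descriptions of the models, with no test.

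The genes lay on 85 scaffolds, 64 of which held 1 of them, and the fullest, scaffold 1299, held 7. By start position among all gene models, 3 pairs of them were neighbours, with 6 of the 121 genes. The other 944 abundant genes, on 353 scaffolds, had 105 such pairs with 196 genes, and the 17789 tested genes had 11137 with 14022 genes. Such counts rise with the size of a set, so they cannot be compared between these sets as they stand. PvG003485 and PvG003486 lay 631 bases apart on the minus strand of scaffold 1254, with a Pearson correlation of 0.50 between their log2 time means. PvG003854 and PvG003845 lay 56 bases apart on opposite strands of scaffold 1265, with -0.11, and PvG030666 and PvG030685 overlapped on opposite strands of scaffold 77870, with 0.06. One more pair overlapped without being neighbours in that order, PvG032758 (72078 to 77623, plus strand) and PvG032780 (76840 to 77940, minus strand) on scaffold 8081, with means of 146 and 152 CPM and a correlation of 0.94 over the 17 times. These 8 were named for their position. In all, 41 of the 121 models (33.9%) overlapped another model, against 42.8% of the other abundant genes, 41.8% of tested genes and 36.2% of all models. On the opposite strand 37 (30.6%) overlapped one, against 38.0% of the other abundant genes and 35.9% of tested genes. The sources used here do not say whether counting used strand, so reads of overlapping and antisense genes, or of near-identical copies, may be shared.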

How the data were processed

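Messenger RNA of whole larvae was measured in 33 libraries, 22 in batch 1 and 11 in batch 2. The authors deposited whole-number read counts per gene for 28415 genes, without normalization, and gene model positions whose source column names SAJR. The aligner was TopHat2, per the submitters' processing notes. The sources used here give no build, counting settings or strand use. Libraries were grouped by title, and the batch 2 library titled 40 h with a duration of 48 h was moved in an alternative. Members, lists and tests were chosen with earlier results of these data known.

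CPM was the count over the column total. Exonic length is the union of a model's exons, and overlap means at least 1 shared base of the gene spans. Tests used edgeR 4.0.16 (R 4.3.3, limma 3.58.1), the robust quasi-likelihood F-test, TMM and Benjamini-Hochberg adjustment at 0.05. The 17789 tested genes reached 1 CPM in 2 or more of the 32 libraries, and the model had time and batch as terms. The choice of genes and these tests leave out replicate 2 at 1 h of rehydration. A standard error is the log2 fold change over the root of F. Differences from the left-out library used a prior count of 2. The fit was tested on simulated data for 48 h against 0 h of dehydration, where it made 1 false call among 17150 tested genes. It recovered 2 of 67 differences of 2-fold, 17 of 67 of 4-fold and 35 of 66 of 16-fold. A gene not called may therefore still differ, even by a large amount. Recovery was not split by gene level, so recovery among abundant genes such as those described here was not tested.

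Named were the 6 genes with the smallest ratio, the 4 highest in CPM and 3 in CPM per kb, 3 on each side of both limits, the 2 largest rises and falls called at 48 h (no gene fell) and the 2 extremes on each side in the left-out library. Gene lists needed names and were not run. No sequence was used, since no genome of the files' build was given.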

Additional observations from a re-analysis of the deposited data

How the results depend on the processing

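The number of genes meeting the limits was 121. It was 74 with TMM-scaled, 87 with RLE-scaled and 59 with upper quartile scaled CPM, 8 with a ratio of at most 1.5 and 503 with at most 3, 65 with single libraries in place of time means, 45 with the left-out library added, 193 in batch 1 alone and 462 in batch 2 alone. Batch 1 covered 15 times and batch 2 only 10, and fewer times make the limits easier to meet. Leaving out 1 library at a time gave 105 to 196, the highest without 36 h of dehydration, and 191 without 24 h of rehydration. At a lowest level of 25 CPM it was 162 and at 100 CPM 92.

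At 24 h, 3 members rose and 0 fell. The members up were 1 without scaling factors, 5 with DESeq2, and 0 in batch 1 alone, with all 33 libraries and with only the groups compared. The members down were 21 without scaling factors, 2 with RLE, 1 with upper quartile factors and 9 with DESeq2. At 48 h, 81 rose, and 2 rose and 42 fell without scaling factors. The count up was 53 with no filter, 14 with all 33 libraries and 1 with only the groups compared. At 3 h of rehydration, 99 fell, and 8 rose and 0 fell without scaling factors. The count down was 13 in batch 1 alone, with 1 library on each side, 0 with all 33 libraries and 99 with only the groups compared. Each library left out in turn gave 0 to 2 up and 0 down at 24 h, 27 (without 48 h replicate 1) to 87 up and 0 down at 48 h, with 41 without 0 h replicate 1, and 0 up and 64 (without 3 h replicate 2) to 81 down at 3 h.

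Of all genes tested, the numbers higher and lower were 817 and 521 (24 h), 2683 and 3233 (48 h) and 1750 and 1609 (3 h of rehydration). With all 33 libraries these were 169 and 126, 1169 and 1231, and 139 and 33. Without scaling factors they were 559 and 861, 1250 and 6683, and 4988 and 99, so that up calls made up 39.4%, 15.8% and 98.1%, against 61.1%, 45.4% and 52.1%. With upper quartile factors up calls at 3 h were 39.9%. Batch 1 alone gave 375 and 244, 2043 and 1744, and 785 and 328. Only the groups compared gave 202 and 211 at 24 h and 1045 and 1297 at 48 h, and DESeq2 gave 913 down at 24 h. Each library left out in turn gave 354 to 807 up and 182 to 499 down at 24 h, 1986 to 2447 and 1984 to 3660 at 48 h, and 791 to 1148 and 778 to 950 at 3 h. PvG001696 was not called at 48 h without scaling factors, with all 33 libraries or with only the groups compared.

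Deviations of same-numbered libraries from their time means correlated between -0.004 and 0.068 over the tested genes. With 2 libraries at a time, the deviations mirror each other. Replicate 2 was a batch 2 library at 24 and 48 h of dehydration but a batch 1 library at 0 h. The check therefore cannot show whether the replicate numbers pair the libraries. A block on the number in the library title was also fitted, in which libraries without a number, all from batch 2, formed a level of their own. With it, 9 members and 1228 genes rose at 24 h, and no other count of calls moved by more than 1.5 times. Depth limits little here, since every member had at least 804 counts in each of the 32 libraries. Times with 1 library have no replicate check.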
